A study of Mus musculus with 20 samples.

Results

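The cytochrome P450 genes of families 1 to 3 were taken by symbol (Cyp, a family number from 1 to 3, a subfamily letter and a gene number), which gave 57 of the 37681 genes listed in the count tables. Symbols that end in a letter or a pseudogene suffix, such as Cyp3a41a and Cyp2d37-ps, were outside this rule. The samples were livers of 10 male C57/BL6 mice of 12 weeks, collected 4 hours after an intraperitoneal injection. IL-1β, an inflammatory cytokine made mainly by monocytes and macrophages, was given at 20 µg/kg to 5 mice (ILB_9577, ILB_9578, ILB_9579, ILB_9582 and ILB_9583), and saline to the 5 mice called untreated (UNT_9574, UNT_9575, UNT_9576, UNT_9580 and UNT_9584). Poly-A RNA of each liver was sequenced with both Illumina (HiSeq 2500) and Ion Torrent (Proton) chemistry, and the reads of each platform were aligned with GSNAP, STAR or STAR + Bowtie2, which gives 6 tables with 10 libraries each. Values are deposited read counts unless another scale is named, and lists of 5 counts follow the order of mice given above.

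P450 enzymes carry a heme group, sit mainly in the membrane of the endoplasmic reticulum and insert an oxygen atom into lipophilic substrates with electrons passed on by P450 oxidoreductase. Families 1 to 3 hold the main drug- and toxin-metabolizing P450s of the hepatocyte and also act on steroids, retinoids and fatty acids. Many of their genes lie in tandem clusters that arose by duplication. Inflammation is known to lower the liver expression of many of them.

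Of the 57 P450 genes, 52 were tested because, in 1 or more tables, 5 of the 10 libraries had counts of 5 or more. Cyp2g1 met that minimum in the Illumina STAR table through its untreated libraries alone. The 5 genes below the minimum were Cyp2b13, Cyp2b19, Cyp2b23, Cyp2t4 and Cyp2w1, whose mean counts over 10 libraries lay between 0 and 2.9 in the 6 tables. Within a single table, 39 (Illumina STAR) to 52 (Illumina STAR + Bowtie2) of the 57 genes reached it. Illumina libraries summed to between 10568530 and 12008799 counts over all genes and Ion Torrent libraries to between 12199528 and 16439683. Hepatocyte markers were abundant in every library, with Alb, which encodes albumin, at a mean of 983223 reads in untreated mice (Illumina GSNAP). The libraries least like their own group were those of mouse UNT_9584 on Illumina and of mouse ILB_9578 on Ion Torrent, with mean correlations to their group of 0.979 and 0.978 in the GSNAP tables.

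Reads from near-identical copies can be placed on either gene, and aligners settle such reads differently. Stretches of 120 coding bases from the Cyp2a, Cyp3a and Cyp2d clusters show how little separates the abundant gene of a cluster from its minor copies. They are taken from NCBIM37 (mm9), inside 1 exon each, and capitals mark bases that differ from the first gene of the set. Cyp2a5 and Cyp2a4 differed at 2 of 120 bases (chr7:27620390-27620509 and chr7:27092244-27092363, both + strand) and were 98.5% identical over 1485 coding bases.
Cyp2a5: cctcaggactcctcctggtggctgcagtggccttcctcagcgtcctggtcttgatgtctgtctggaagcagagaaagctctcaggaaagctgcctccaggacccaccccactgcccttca
Cyp2a4: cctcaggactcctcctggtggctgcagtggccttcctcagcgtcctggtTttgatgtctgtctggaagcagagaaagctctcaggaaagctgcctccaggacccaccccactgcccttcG

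Cyp3a11, Cyp3a44 and Cyp3a16 lie on the minus strand of chromosome 5 (chr5:146671994-146672113, chr5:146591205-146591324 and chr5:146202929-146203048). Cyp3a44 differed from Cyp3a11 at 5 and Cyp3a16 at 9 of 120 bases, with 94.9% and 92.8% identity over 1515 coding bases.
Cyp3a11: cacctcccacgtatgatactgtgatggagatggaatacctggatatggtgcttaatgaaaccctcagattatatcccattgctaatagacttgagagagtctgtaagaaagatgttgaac
Cyp3a44: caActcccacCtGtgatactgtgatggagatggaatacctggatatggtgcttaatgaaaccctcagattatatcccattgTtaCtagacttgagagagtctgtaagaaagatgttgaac
Cyp3a16: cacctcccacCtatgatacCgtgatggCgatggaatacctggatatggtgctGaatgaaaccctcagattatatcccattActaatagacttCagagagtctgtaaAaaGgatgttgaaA

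Cyp2d9 (chr15:82282918-82283037, + strand), Cyp2d11 (chr15:82224222-82224341, minus strand) and Cyp2d12 (chr15:82385613-82385732, + strand) show the same in the Cyp2d cluster, where the minor copies differed at 8 and 9 of 120 bases.
Cyp2d9: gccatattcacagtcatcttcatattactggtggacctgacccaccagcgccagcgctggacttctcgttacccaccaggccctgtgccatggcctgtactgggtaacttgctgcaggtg
Cyp2d11: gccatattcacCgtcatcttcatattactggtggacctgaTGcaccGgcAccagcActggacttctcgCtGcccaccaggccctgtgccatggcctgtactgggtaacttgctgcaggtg
Cyp2d12: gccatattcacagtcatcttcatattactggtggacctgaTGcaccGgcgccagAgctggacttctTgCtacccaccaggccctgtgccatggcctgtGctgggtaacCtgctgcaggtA

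Treatment with IL-1β lowered most of the P450 genes with measurable counts, and Cyp2b10 stood against this direction with a rise of 4.14-fold (Illumina GSNAP). DEGs were called with edgeR's quasi-likelihood test at a Benjamini-Hochberg adjusted p below 0.05 over all 15578 genes tested. In the Illumina GSNAP table, 31 of the 52 tested P450 genes (59.6%) fell and 2 rose, where 23.9% of all tested genes were called lower and 23.7% higher. With Illumina STAR, 30 fell and 2 rose (all genes 22.9% and 22.7%), and with Illumina STAR + Bowtie2, 38 fell and 2 rose (24.4% and 22.9%). The Ion Torrent tables gave 35 genes lower and 1 higher with GSNAP (all genes 23.9% and 22.5%), 28 and 1 with STAR (21.8% and 20.3%), and 36 and 1 with STAR + Bowtie2 (24% and 22.8%). The share of P450 genes called lower was thus above the background in each table and the share called higher was below it.

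The size of the fall was moderate. Among the 25 genes that were lower in all 6 tables and averaged 50 or more counts with Illumina GSNAP, the log2 fold change there ran from -2.98 to -0.45 with a median of -0.67, and 18 of the 25 lay above -0.8. Called falls of more than 2-fold were found for 8 of 52 P450 genes with Illumina GSNAP (15.4%, all genes 9.15%) and for 7 and 8 with STAR (all genes 8.88%) and STAR + Bowtie2 (all genes 9.28%). On Ion Torrent they were found for 4 (GSNAP, 7.69%; all genes 9.42%), 6 (STAR, all genes 8.95%) and 5 (STAR + Bowtie2, all genes 9.22%), so the share of large falls was near the background there. The median log2 fold change of the P450 genes whose counts averaged 10 or more was -0.66 in the Illumina GSNAP table (41 genes, of which 31 were called lower) and -0.58 in the Ion Torrent GSNAP table (45 genes), against 0.00 for all genes of that depth in both. After scaling by library size, all treated libraries lay below all untreated ones for 26 of the 52 tested genes with Illumina GSNAP (all genes 17%). With Ion Torrent GSNAP this held for 29 (all genes 17%). Across the 6 tables, 26 of the 52 genes fell in all (all genes 17.6%), 1 rose in all (all genes 17.3%), 12 fell in 1 to 5 tables, 1 rose in 1 to 5 tables, 12 were called in none, and 0 were called in opposite directions.

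**Figure D1:**
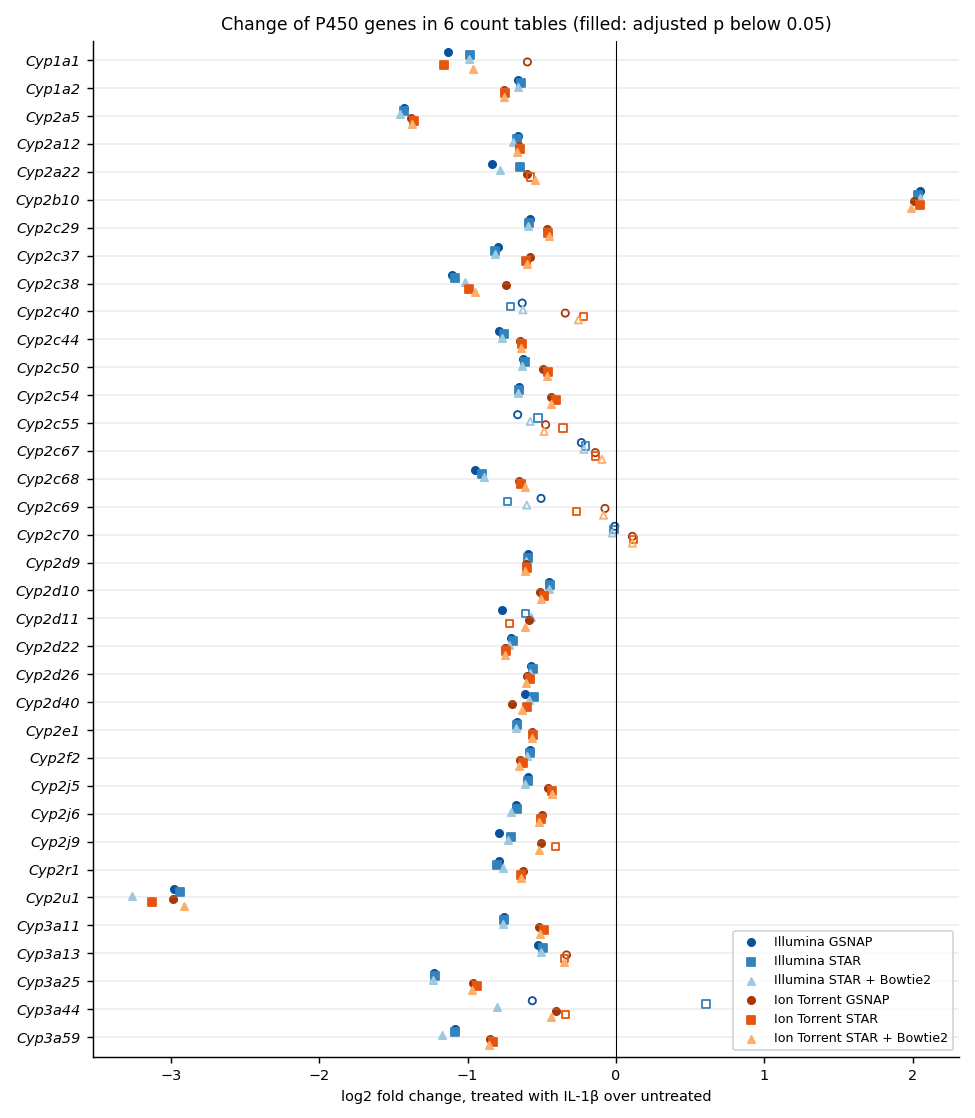
Log2 fold change (treated with IL-1β over untreated, 5 against 5 mice) of the P450 genes whose counts averaged 20 or more in 4 or more of the 6 tables, with 1 symbol for each table and filled symbols for an adjusted p below 0.05. Most genes lie to the left of 0, Cyp2b10 lies near 2.05, Cyp2u1 near -2.98 and Cyp2c70 near 0; the open symbol of Cyp3a44 at 0.61 rests on mean counts of 0.4 and 0.6.

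Fewer hepatocytes in a sample and less RNA of a gene in each hepatocyte cannot be told apart in these liver samples. The summed level of 10 hepatocyte markers was 96521 to 118517 CPM (reads scaled to library size) in untreated and 77531 to 88670.2 in treated libraries (Illumina GSNAP), and 6 of the 10 markers fell and 1, Tat, rose. The defining hepatocyte gene Alb, which held most of the reads in this sum, fell by 0.53 on the log2 scale. Apob, the next most abundant of the markers, was not called (0.36 ± 0.17, edgeR adjusted p = 0.103). Cps1, an enzyme of the urea cycle, fell by 0.89. Of 11 listed neutrophil markers, the 7 tested all rose in the Illumina GSNAP table. The summed level of the list was 2.59 to 5.46 CPM in untreated and 53.0 to 111 in treated libraries. Ngp and Ltf, which mark neutrophil granules, were at 0 in the untreated libraries of that table. With Ion Torrent GSNAP the untreated means were 0.2 reads for Ngp and 29.6 for Ltf. Untreated means of Ngp, Retnlg and Cxcr2 were 0, 1.0 and 2.8 reads with Illumina GSNAP. They could meet the minimum count mainly through treated libraries, so the filter favored a rise. With Illumina GSNAP, where 23.9% of all genes were called lower and 23.7% higher, 4 of 11 Kupffer cell and macrophage markers fell and 1 rose, 4 of 7 lymphocyte and NK markers fell and 0 rose, 4 of 8 stellate and fibroblast markers fell and 0 rose, 2 of 5 cholangiocyte markers rose and 0 fell, and 3 of 8 endothelial markers fell and 3 rose. The part of these shifts in the P450 changes was not tested.

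Summing the reads of a subfamily removes the question of which paralog a read belongs to, as long as it stays among the summed genes. Cyp3a41a lay outside the symbol rule and was not in the Cyp3a sum. It was the closest coding match of Cyp3a11 (95.2% identical) and Cyp3a44 (95.8%). The sums of Cyp1a, Cyp2a, Cyp2c, Cyp2d, Cyp2j and Cyp3a fell and that of Cyp2b rose in all 6 tables (edgeR, 5 against 5 mice). With Illumina GSNAP the largest fall was that of Cyp2a, whose log2 fold change was -1.10 ± 0.15 (SE, edgeR adjusted p = 2.95e-05). The Cyp3a sum followed at -0.80 ± 0.15 (edgeR adjusted p = 0.000571), and the smallest fall was that of Cyp2c at -0.55 ± 0.13 (adjusted p = 0.00334). On Ion Torrent with GSNAP the Cyp3a sum changed by -0.57 ± 0.11 and the Cyp2c sum by -0.42 ± 0.11, again both called. The Cyp2b sum rose by 2.04 ± 0.29 and 1.98 ± 0.29 on the log2 scale in these tables, and almost all of its reads belonged to Cyp2b10.

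**Figure D2:**
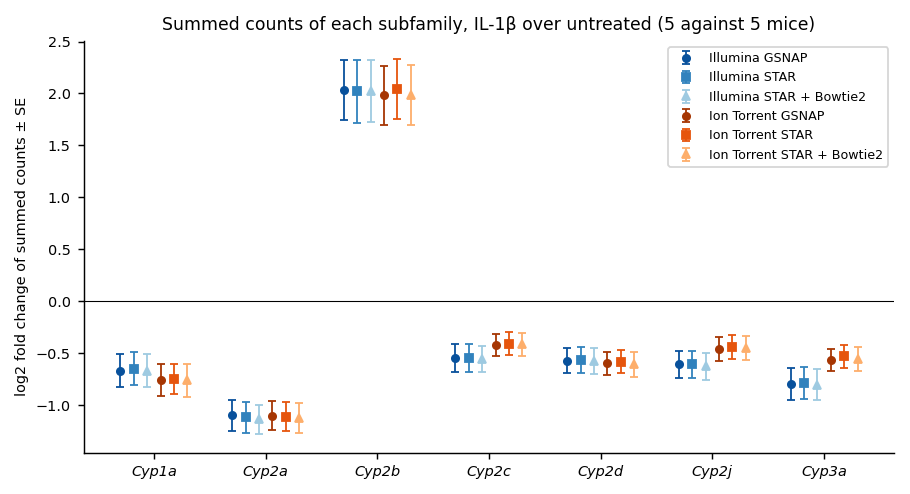
Log2 fold change of the summed counts of each subfamily with several tested genes (treated with IL-1β over untreated), shown for each of the 6 tables with the standard error from edgeR as bars. The Cyp2b sum lies near 2 and the other 6 sums lie below 0 in every table, between -1.14 and -0.41.

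The P450 genes together took 2.92% ± 0.21 (SD, n = 5) of all gene counts in untreated and 1.68% ± 0.14 in treated mice with Illumina GSNAP. With Ion Torrent GSNAP the shares were 2.56% ± 0.03 and 1.59% ± 0.11. The groups were apart in all 6 tables, the untreated libraries between 2.51% and 3.40% and the treated libraries between 1.43% and 1.82%. Mouse UNT_9584 had the highest untreated share on Illumina with GSNAP (3.29%), above 2.74% to 2.92% in the other untreated mice. It was also the highest with Ion Torrent GSNAP, at 2.60% against 2.51% to 2.57%.

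**Figure D3:**
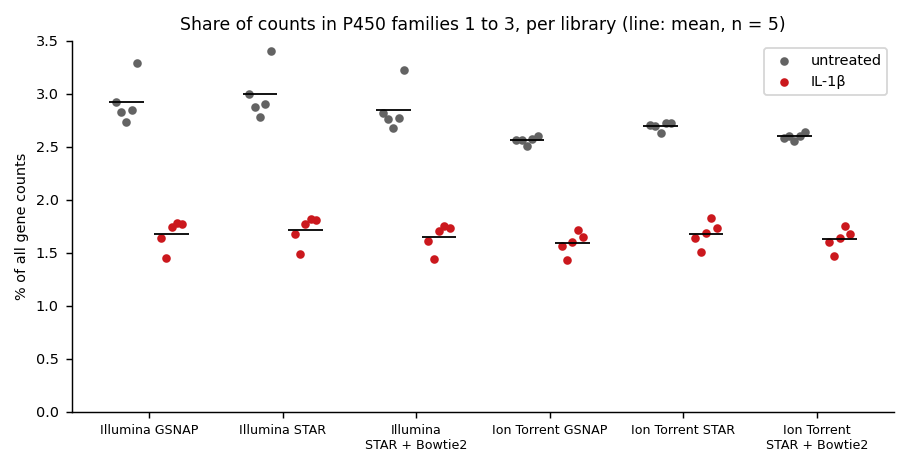
Percent of all gene counts that fell on the 57 P450 genes in each library of the 6 tables, with gray points for untreated and red points for treated mice and a line at the mean of 5. The treated libraries lie at 1.43% to 1.82% and the untreated ones at 2.51% to 3.40%, with no overlap in any table.

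Cyp2e1 and Cyp3a11 dominated this pool in both groups. They held 52.7% ± 2.0 (SD, n = 5) of the P450 counts in untreated and 51.9% ± 1.7 in treated mice with Illumina GSNAP, a difference smaller than the spread between mice. In RPKM (TMM-scaled library size and exon length), the untreated level was 4188 ± 272 for Cyp2e1 and 3061 ± 772 for Cyp3a11. Cyp2c29 (970 ± 187), Cyp2d9 (869 ± 130) and Cyp2f2 (696 ± 76) came next on the same scale, and the ranges of mean ± 1 SD of neighbours in that stretch overlapped. From Cyp2a5 (481 ± 131) to Cyp2j5 (295 ± 57), 7 genes followed, and the same held for each pair of neighbours.

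Cyp2b10 (ENSMUSG00000030483, chr7:26682639-26711643, + strand) is the phenobarbital-inducible P450 of mouse liver and the best-known target of the nuclear receptor CAR. Its Illumina GSNAP counts were 126, 237, 357, 139 and 217 in untreated mice and 614, 634, 559, 857 and 1270 in treated mice. All treated libraries lay above all untreated ones. The log2 fold change was 2.05 ± 0.29 (SE, edgeR adjusted p = 3.91e-05), and the 6 tables gave 1.99 to 2.05. On Ion Torrent (GSNAP) the counts were 132, 304, 397, 176 and 250 against 715, 680, 640, 1081 and 1407, with mouse ILB_9583 again the highest and mouse UNT_9574 again the lowest. No stretch of 100 coding bases of Cyp2b10 occurred unchanged in another gene's coding sequence, and its best coding alignment to another gene, Cyp2b13, was 87.1% identical. Its promoter is shown because Cyp2b10 was the only P450 gene that rose in all 6 tables. The window spans 250 bases before to 50 bases after the start (RefSeq, GRCm38.p6, chr7:25897408-25897707, + strand). It holds a single match to the C/EBP motif TTNNGNAA, in capitals, 58 to 51 bases before the start and on the opposite strand. The same motif occurred in 24 of 50 P450 genes, among them Cyp2a5 and Cyp2c29, which fell, and in 40.7% of all promoters. Its part in the rise of Cyp2b10 was not tested.
Cyp2b10 promoter: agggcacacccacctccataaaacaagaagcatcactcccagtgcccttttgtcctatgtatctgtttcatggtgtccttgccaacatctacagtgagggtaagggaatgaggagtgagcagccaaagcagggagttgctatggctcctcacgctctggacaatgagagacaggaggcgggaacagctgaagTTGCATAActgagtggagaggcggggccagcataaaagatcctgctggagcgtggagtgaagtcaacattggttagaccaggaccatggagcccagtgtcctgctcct

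The other Cyp2b genes were at or near the detection limit. Cyp2b9, which is known as a female-predominant gene, had mean counts of 2.0 in untreated and 1.2 in treated mice with Illumina GSNAP and was called in 0 of 6 tables.

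Cyp1b1 acts on estradiol and aromatic hydrocarbons and is known mainly from tissues outside the liver. It was the other P450 gene of families 1 to 3 called higher, at low counts. With Illumina GSNAP it had 15, 10, 9, 8 and 12 reads in untreated and 17, 16, 24, 24 and 10 in treated mice, so the groups overlapped through mouse ILB_9583. The log2 fold change was 0.92 ± 0.28 (edgeR adjusted p = 0.0149). It was called in the 3 Illumina tables; on Ion Torrent the log2 fold changes were 0.74 to 1.26 with adjusted p from 0.0686 to 0.118. In the Illumina STAR + Bowtie2 table the call was lost without any of the mice UNT_9574, UNT_9575, ILB_9577, ILB_9579, UNT_9580 or ILB_9582.

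The Cyp1a genes are targets of the aryl hydrocarbon receptor, and Cyp1a2, which also metabolizes caffeine, is the form made constitutively in liver. Cyp1a2 (chr9:57524744-57531462) had 7671, 7275, 7546, 9627 and 7174 reads in untreated and 4902, 2625, 4622, 4833 and 5051 in treated mice (Illumina GSNAP). Mouse ILB_9578 was the lowest treated library, and the groups did not overlap. Cyp1a2 fell by 0.66 ± 0.16 on the log2 scale (edgeR adjusted p = 0.00349), and by 0.64 to 0.76 over the 6 tables. Cyp1a1 had 36, 39, 38, 17 and 20 against 18, 5, 13, 9 and 15 reads. It fell in 5 tables and had a log2 fold change of -0.60 ± 0.24 (edgeR adjusted p = 0.052) with Ion Torrent GSNAP.

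**Figure D4:**
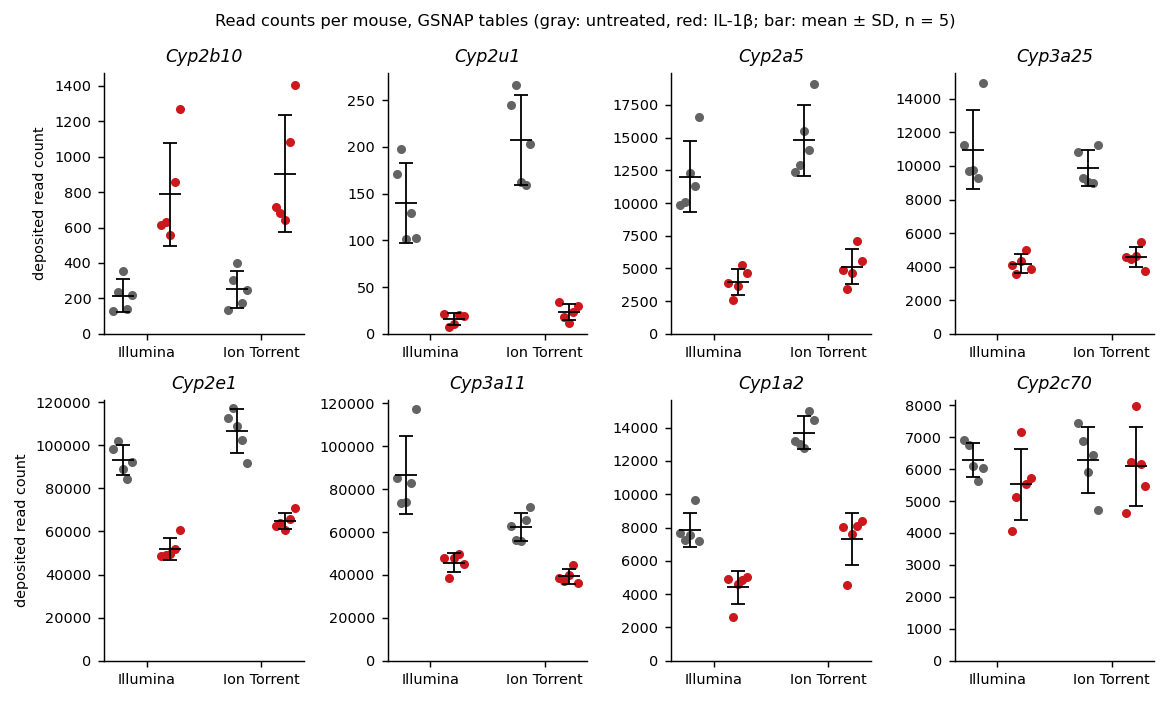
Deposited read counts of 8 P450 genes in each mouse (GSNAP tables of both platforms), with gray points for untreated and red points for treated mice and bars at the mean ± SD of 5. The groups are apart for Cyp2b10 (highest untreated count 357 and lowest treated count 559 on Illumina), Cyp2u1, Cyp2a5, Cyp3a25, Cyp2e1, Cyp3a11 and Cyp1a2, and overlap for Cyp2c70.

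Cyp2u1 had the largest fall of all P450 genes called in the Illumina GSNAP table. It lies on chromosome 3 (ENSMUSG00000027983, chr3:130993409-131006145, minus strand) and encodes a fatty acid hydroxylase. Its Illumina GSNAP counts were 171, 198, 101, 129 and 103 in untreated and 21, 7, 11, 20 and 19 in treated mice, with a wide gap between the groups. This was a 7.90-fold fall, or a log2 fold change of -2.98 ± 0.27 (edgeR adjusted p = 6.73e-07). On Ion Torrent (GSNAP) the counts were 245, 266, 162, 159 and 203 against 34, 18, 12, 23 and 30, and the log2 fold change was -2.98 ± 0.24. Cyp2u1 had no relative close enough to be aligned to it in the comparison of coding sequences, and no stretch of 100 bases was shared.

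Cyp2g1, best known from the olfactory mucosa, had 16, 19, 10, 17 and 23 against 5, 2, 4, 4 and 3 reads, a log2 fold change of -2.04 ± 0.33 (edgeR adjusted p = 0.000164) on few reads. Most of its treated counts there were below the minimum of 5. Cyp2g1 could thus meet the minimum mainly through untreated libraries, so the filter favored a fall. It is among the 26 genes counted above as lower in all 6 tables. Cyp2r1, a vitamin D hydroxylase of the liver, had 242, 186, 209, 169 and 310 against 102, 122, 110, 130 and 112 reads, without overlap. It fell by 0.79 ± 0.17 on the log2 scale (edgeR adjusted p = 0.00146) and in all 6 tables. Cyp2s1 had a mean of 7.0 reads in untreated and 4.0 in treated mice and was called in 0 tables.

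All 4 Cyp2a genes fell with GSNAP on both platforms. Cyp2a5 (chr7:27620324-27628567), the coumarin hydroxylase, had 9884, 10045, 12327, 11324 and 16563 reads in untreated and 3864, 2593, 3645, 5225 and 4626 in treated mice (Illumina GSNAP). The highest treated count, 5225, was well below the lowest untreated one, 9884. The log2 fold change was -1.43 ± 0.20 (edgeR adjusted p = 3.83e-05), with -1.46 to -1.36 over the 6 tables. Its near copy Cyp2a4, a testosterone hydroxylase, had 108, 125, 122, 108 and 187 against 23, 27, 39, 53 and 38 reads and a log2 fold change of -1.68 ± 0.24. Cyp2a12, a bile acid and steroid hydroxylase, changed less, by -0.66 ± 0.10 (edgeR adjusted p = 0.000112), from a mean of 7135 to 4013 reads. Cyp2a22, 97.0% identical to Cyp2a12, fell in 5 of 6 tables.

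Cyp2e1 (chr7:147949638-147960874), which metabolizes ethanol and acetaminophen, had the highest untreated level per length with Illumina GSNAP. It had 97994, 101704, 89122, 84266 and 92198 reads in untreated and 48505, 49222, 49575, 51657 and 60737 in treated mice (Illumina GSNAP). The 5 treated libraries were all below the untreated ones. The log2 fold change was -0.67 ± 0.11 (edgeR adjusted p = 0.000217), a 1.59-fold fall, and -0.56 ± 0.10 with Ion Torrent GSNAP. Cyp2f2, known for the bioactivation of naphthalene, fell by 0.58 ± 0.13 on the log2 scale (edgeR adjusted p = 0.00177), from a mean of 17127 to 10160.2 reads. Neither gene has a close copy, and both fell in all 6 tables.

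Of the 7 Cyp3a genes, 4 fell with Illumina GSNAP and 6 with Ion Torrent GSNAP. Cyp3a11 (chr5:146666002-146691540), the main Cyp3a enzyme of the adult mouse liver and a target of the receptor PXR, had 85045, 73693, 74063, 82909 and 117437 reads in untreated and 47825, 38526, 47735, 49997 and 44947 in treated mice (Illumina GSNAP). Mouse UNT_9584 stood far above the other untreated mice there, whereas its Ion Torrent count of 71493 was close to those of the others (55828 to 65769). The log2 fold change was -0.76 ± 0.15 (edgeR adjusted p = 0.000987) on Illumina and -0.52 ± 0.11 (edgeR adjusted p = 0.00137) on Ion Torrent. Cyp3a25 fell more, from 11221, 9723, 9739, 9265 and 14956 to 4102, 3583, 4351, 5010 and 3872 reads. Its log2 fold change was -1.23 ± 0.15 (edgeR adjusted p = 1.46e-05) on Illumina and -0.97 ± 0.11 on Ion Torrent (GSNAP). Cyp3a59, 97.5% identical to Cyp3a25 in coding sequence, fell by 1.08 ± 0.18 on the log2 scale. Cyp3a13 fell in 4 of 6 tables, with log2 fold changes of -0.53 to -0.33. Without mouse UNT_9584, the log2 fold change was -0.59 for Cyp3a11, -1.06 for Cyp3a25 and -1.25 for Cyp2a5 (Illumina GSNAP), and all 33 calls of the table remained.

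Of the 15 Cyp2c genes, 7 fell and 8 were not called in the Illumina GSNAP table. Cyp2c29, which epoxidizes arachidonic acid, was its most abundant gene, with 19044, 21867, 23129, 21423 and 28254 against 12748, 9950, 15977, 16831 and 12216 reads. It fell by 0.58 ± 0.16 on the log2 scale (edgeR adjusted p = 0.00811). Cyp2c50 went from a mean of 8705 to 5007 reads without overlap (log2 fold change -0.63 ± 0.11). The largest fall of the subfamily was that of Cyp2c38, with 300, 396, 515, 322 and 876 against 113, 263, 251, 244 and 132 reads and a log2 fold change of -1.11 ± 0.32 (edgeR adjusted p = 0.0097). Cyp2c68 followed at -0.95 ± 0.21, and Cyp2c37, Cyp2c44 and Cyp2c54 lay between -0.79 and -0.65. All 7 genes fell in every table.

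Cyp2c70, which makes muricholic acids from chenodeoxycholic acid in mice, was abundant and not called. It had 6913, 6768, 6108, 5635 and 6021 reads in untreated and 4063, 5126, 7165, 5530 and 5735 in treated mice (Illumina GSNAP), and the treated libraries spanned the untreated ones. Its log2 fold change was -0.01 ± 0.14 (edgeR adjusted p = 0.986) there and between -0.02 and 0.12 over the 6 tables. Cyp2c67, at a mean of 2484 and 1872 reads, had -0.23 ± 0.17 and was called in 0 tables. Cyp2c55, Cyp2c40 and Cyp2c69 were likewise called in 0 of 6 tables, with log2 fold changes from -0.73 to -0.07. Cyp2c40 varied most between treated mice, with 14, 55, 143, 32 and 64 reads after 135, 69, 80, 60 and 193 in untreated mice. Mouse ILB_9579 held the highest treated count of Cyp2c40 and of Cyp2c69 (113 against 30 to 52 in the other treated mice for Cyp2c69). Without it, both were called lower with Illumina GSNAP, at log2 fold changes of -1.22 and -0.96, as was Cyp2c67. Cyp2c67 gained a call in no other table, and no Ion Torrent table gained both Cyp2c40 and Cyp2c69. Leaving out the highest treated count moves the change downward, so these calls do not show a fall of Cyp2c40 and Cyp2c69. These genes share sequence heavily: 50.7% of the stretches of 100 coding bases of Cyp2c40 and 40.7% of those of Cyp2c69 occurred unchanged in another gene.

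The abundant Cyp2d genes moved within a narrow range. Cyp2d9, a male-predominant testosterone hydroxylase, had 17979, 16174, 17530, 21430 and 14154 reads in untreated and 12162, 7912, 9332, 10809 and 11041 in treated mice (Illumina GSNAP). Its log2 fold change was -0.60 ± 0.13 (edgeR adjusted p = 0.00184), and the 6 tables gave -0.62 to -0.59. Cyp2d10 and Cyp2d26 had means of 7623 and 7528 reads in untreated mice and fell by 0.45 ± 0.12 and 0.57 ± 0.12 on the log2 scale. Cyp2d22 and Cyp2d40 also fell in all 6 tables, at -0.75 to -0.55.

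Of the Cyp2j genes, which epoxidize arachidonic acid, the 3 with measurable counts on all platforms fell in at least 5 tables. Cyp2j5 had 7594, 8212, 7449, 7980 and 10541 against 4567, 4440, 5693, 5414 and 4533 reads and a log2 fold change of -0.60 ± 0.13 (edgeR adjusted p = 0.00189). Cyp2j6 fell by 0.67 ± 0.16 and Cyp2j9 by 0.79 ± 0.15 on the log2 scale. Cyp2j9 lost its call with Ion Torrent STAR (-0.41). Cyp2j8, Cyp2j11, Cyp2j12 and Cyp2j13 had mean counts of 0 to 25.0 and were called in 0 tables.

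Whether the genes of a subfamily moved in proportion was examined as the log2 ratio of each gene to the most abundant gene of its subfamily in the same library, which does not depend on how libraries are scaled. With a two-sided exact permutation test over mice, 0 of 26 ratios (Illumina GSNAP) and 0 of 32 (Ion Torrent GSNAP) passed an adjusted p of 0.05, in a design whose smallest p is 0.00794. A single ratio at that p could not pass after adjustment over so many ratios. The test therefore cannot show that the genes moved in proportion. The ratio of Cyp3a25 to Cyp3a11 was lower in treated mice by 0.48 on the log2 scale on Illumina and by 0.45 on Ion Torrent, with the smallest possible p in all 6 tables (exact permutation test, adjusted p 0.103 and 0.127 in these GSNAP tables). The ratio of Cyp2a12 to Cyp2a5 was higher by 0.77 on Illumina (exact p = 0.00794, adjusted p = 0.103) and by 0.74 on Ion Torrent (exact p = 0.0159, adjusted p = 0.169). For Cyp2a4 against Cyp2a5 the differences were -0.26 and 0.10 with exact permutation p of 0.167 and 0.381.

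The abundant genes Cyp3a11, Cyp2d9 and Cyp2a5 had similar counts after each aligner, and several minor copies did not. Cyp2c67, Cyp2c68 and Cyp3a59, 97.5% to 98.1% identical to another gene, varied little on Illumina. For them the highest aligner gave 1.03, 1.13 and 1.13 times the untreated reads of the lowest. On Ion Torrent it gave 1.34, 1.52 and 1.92 times. In untreated mice, Cyp3a11 averaged 86629 counts in the Illumina GSNAP table, 90966 after STAR and 92329 after STAR + Bowtie2. The mean of Cyp3a44, known as a female-predominant gene, was 30.0, 0.4 and 194 in the same tables and 887, 10 and 316 on Ion Torrent. Cyp3a16, a gene of the fetal liver, had 22.4, 2.8 and 176 on Illumina and 740 with Ion Torrent GSNAP. Cyp2d11 went from 21.2 (STAR) to 1230 (GSNAP) on Ion Torrent, a 58-fold range, while Cyp2d9 went from 24873 to 29937. Cyp2a4 had 130, 9.4 and 23.6 reads on Illumina and 450, 22.8 and 403 on Ion Torrent, next to Cyp2a5 at 12029 to 17339.

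The treatment effect of these minor copies was read from different numbers of reads in each table, and their calls differed between tables. Cyp3a44 was called lower in 3 tables, at log2 fold changes of -0.80 (Illumina STAR + Bowtie2), -0.41 (Ion Torrent GSNAP) and -0.44 (Ion Torrent STAR + Bowtie2), and was not called in the other 3. Cyp2a4 fell in all 6 tables, at -2.30 to -1.28. Cyp2c39, Cyp2d11, Cyp2d12, Cyp2d34, Cyp3a16 and Cyp3a57 were called lower in 2 to 4 tables, and Cyp2c65 in 1. Over the 26 genes with at least 90% coding identity to another gene and a mean of at least 20 untreated reads in some table, the highest aligner gave a median of 1.91 times the reads of the lowest on Ion Torrent and 1.14 times on Illumina, after 1 read was added to each mean. The 19 less similar genes gave 1.31 and 1.10 times. Levels were set side by side here without a test, since each table was re-sampled separately.

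**Figure D5:**
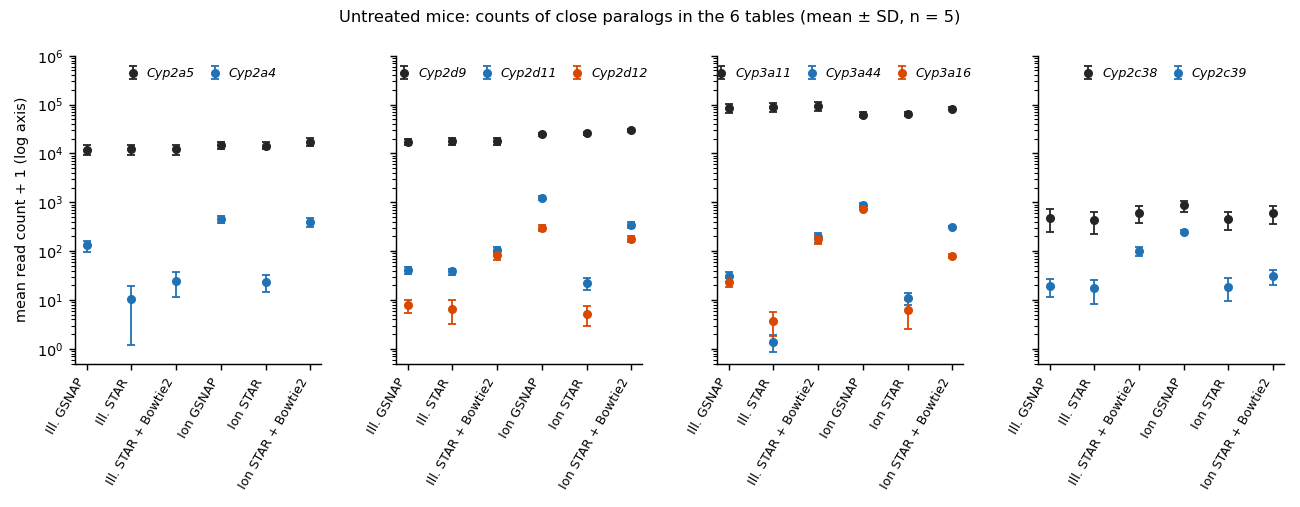
Mean read count plus 1 of close paralogs in untreated mice (log axis, bars ± SD of 5) in the 6 tables, for the Cyp2a, Cyp2d and Cyp3a sets whose sequences are given above and for Cyp2c38 with Cyp2c39. The abundant genes Cyp2a5, Cyp2d9 and Cyp3a11 stay nearly level, while Cyp3a44 runs from 0.4 to 887 reads before 1 is added.

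The effect of IL-1β was compared between platforms by the interaction of platform and treatment, fitted in edgeR with the mouse as a block. The interaction passed an adjusted p of 0.05 for 0 of 52 P450 genes with each of the 3 aligners, where the share of all genes that passed was 0.0642% (GSNAP), 0.00642% (STAR) and 0.077% (STAR + Bowtie2). At an unadjusted p below 0.05 there were 7, 9 and 9 P450 genes (13.5%, 17.3% and 17.3%, all genes 7.81%, 7% and 7.77%). The higher log2 fold change was on Ion Torrent in all of them. Leaving out 1 mouse gave 5 to 18 genes at this threshold. The median difference over the 52 genes was 0.129, 0.126 and 0.118. Without mouse UNT_9584 it was 0.084, 0.068 and 0.067, the lowest for any mouse left out. The paper reports a shifted Ion Torrent read-length distribution for this mouse. Its mean correlation to its group was 0.979 on Illumina, the lowest of the untreated mice there, and 0.986 on Ion Torrent (GSNAP). The part of either library of this mouse in the platform difference was not tested. Limma-voom also gave 0 at the adjusted threshold, and 6, 9 and 9 at the unadjusted one. The lowest unadjusted p with GSNAP was that of Cyp3a25, whose effect was 0.24 ± 0.08 higher on the log2 scale on Ion Torrent (edgeR adjusted p = 0.578). Without the mouse block, 0, 1 and 0 genes had an unadjusted p below 0.05.

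Electrons for P450 reactions come from the oxidoreductase Por, and heme is made by a pathway that begins with Alas1. Of 17 tested partner genes, 10 fell and 2 rose with Illumina GSNAP (all genes 23.9% and 23.7%), and the same numbers were found with Ion Torrent GSNAP (all genes 23.9% and 22.5%). Cyb5, which encodes cytochrome b5, fell by 0.70 ± 0.10 on the log2 scale, and Pgrmc1, a heme-binding membrane protein, fell by 0.49 ± 0.12. The largest changes among the called were Cyb5r1 (-1.22 ± 0.15) and Cpox, a heme synthesis enzyme (-1.09 ± 0.11). The genes that rose were Alas1 (0.999 ± 0.288, edgeR adjusted p = 0.0103) and Hmox1, which breaks heme down (1.04 ± 0.23, edgeR adjusted p = 0.0019). Por had a mean of 5734 reads in untreated and 4268 in treated mice and was not called (-0.25 ± 0.20, edgeR adjusted p = 0.338).

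Among 27 tested receptors and transcription factors known to act on P450 genes, 9 fell and 7 rose with Illumina GSNAP, near the background of 23.9% and 23.7% of all genes. Nr1i3, which encodes CAR, fell from a mean of 5736 ± 1485 to 278 ± 70 reads (SD, n = 5), a log2 fold change of -4.19 ± 0.22 (edgeR adjusted p = 4.33e-09), while Cyp2b10 rose. Rxrg fell by 2.89 ± 0.30 on the log2 scale at low counts, and Rxra, the abundant partner of CAR and PXR, had 0.10 ± 0.14 (edgeR adjusted p = 0.627). Nr1i2, which encodes PXR, fell by 0.43 ± 0.12 (edgeR adjusted p = 0.0097). Hnf4a rose by 1.04 ± 0.09 (edgeR adjusted p = 5.33e-07). Ahr, which encodes the receptor that acts on Cyp1a genes, rose by 0.49 ± 0.16 (edgeR adjusted p = 0.0202).

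Promoter windows of 300 bases (RefSeq, GRCm38.p6) were matched by symbol for 50 of the 57 genes and searched for 5 motifs on both strands. The C/EBP motif TTNNGNAA occurred in 24 of 50, against 40.7% of all 32851 promoters, and the nuclear receptor element AGGTCA in 18 of 50, against 16.3%. The xenobiotic response element core TNGCGTG was found in 1 of 50 (Cyp2c68; all promoters 5.07%), an NF-kB motif in 7 of 50 (8.46%) and the palindromic HNF1 motif in 0 of 50 (0.00913%). Cyp1a1 and Cyp1b1 were among the 7 with an NF-kB match. A P450 gene was counted when any of its windows matched, whereas the share of all promoters is over single windows. This can favor the P450 genes, because some have more than 1 window. Near-identical paralogs such as Cyp2a4 and Cyp2a5 share promoter sequence, so the counts above are not of independent promoters.

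The median changes of other P450 families were negative as well. Of 16 tested Cyp4 genes, which act on fatty acids, 9 fell and 1 rose with Illumina GSNAP (all genes 23.9% and 23.7%), with a median log2 fold change of -0.69, next to -0.64 for the 52 genes of families 1 to 3. Cyp4v3 (-0.73 ± 0.11) and Cyp4a12a (-0.76 ± 0.19) were the most abundant, and Cyp4a31 (-1.74 ± 0.29) and Cyp4a32 (-1.44 ± 0.23) had the largest called changes. Of 13 tested genes of the remaining families, 6 fell and 3 rose, with a median of -0.86. Cyp7a1, the rate-limiting enzyme of bile acid synthesis, fell from a mean of 2731 ± 1085 to 92.4 ± 109.5 reads (SD, n = 5; log2 fold change -4.73 ± 0.63, edgeR adjusted p = 2.7e-05). Cyp21a1 rose by 2.995 ± 0.472, whereas the abundant Cyp27a1 (0.00 ± 0.10) and Cyp7b1 (-0.30 ± 0.24) were not called. The difference between families was not tested.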

How the data were processed

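Livers of 5 mice treated with IL-1β and 5 untreated mice gave 20 libraries, 10 on each platform. The authors aligned reads to mm9 with GSNAP, STAR 2.5.1b, or STAR followed by Bowtie2 2.2.9, removed ribosomal and mitochondrial reads, down-sampled within a table to the size of its smallest library, and deposited counts per gene of the Ensembl v67 models (6 tables); whether an Illumina count is a read or a pair is not given in the sources used here. Each table was fitted alone, without a replicate block, with edgeR 4.0.16 (TMM, quasi-likelihood test, R 4.3.3) over 15578 genes with at least 5 counts in 5 of 10 libraries of any table, with Benjamini-Hochberg adjustment and a threshold of 0.05. The study itself used a rank test, tried here as an alternative beside DESeq2 1.42.0, limma-voom 3.58.1, other scalings and filters, and leaving out each mouse. Effects were compared between platforms with the mouse as a block, because both libraries of a mouse come from 1 liver. In 30 of 30 library pairs a library correlated best with its own mouse (0.189 to 0.723, deviations from group means). The lowest values, 0.189 to 0.248, were those of mouse UNT_9584. P-values cover the spread between the 5 mice of a group. The models were tested on simulated data. Coding sequences were compared with BLAST+ 2.17.0 (NCBIM37), and sequence windows of 100 bases were counted as shared when identical in another gene.

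Genes named with values were, in each subfamily, those with the highest mean count, those with the largest and smallest changes among genes called in all tables and averaging 50 or more counts, and those with the widest range over tables; of the other lists, the 2 most abundant and the 2 most changed genes. Other genes were named after their values were seen, among them Cyp2c70, Cyp2c67, Cyp2a12, Por, Alas1, Hmox1, Nr1i2, Ahr, Cps1, Ngp and Ltf. The members, lists and tests were chosen with earlier results of these data known, and the tests of ratios within subfamilies were added after the fold changes were seen.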

Additional observations from a re-analysis of the deposited data

Results flagged for a closer look

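In 112 groups of 5 libraries examined for a library far from the others (depth-scaled counts in the GSNAP tables), 10 had one. The limit used flags about 1 in 20 groups of normal values. The groups are genes of the same libraries and not independent, so the count cannot be judged against that rate. Of these, 5 were the Illumina library of mouse UNT_9584, the highest untreated library for Cyp3a11 (117437 reads, the others 73693 to 85045), Cyp3a25 (14956, the others 9265 to 11221), Cyp2c50 (9925, the others 8201 to 8653), Cyp2j5 (10541, the others 7449 to 8212) and Cyp2a4 (187, the others 108 to 125). Mouse UNT_9580 was the highest untreated Illumina library for Cyp1a2 (9627 reads, the others 7174 to 7671) and Cyp2f2 (20062, the others 15449 to 17589). Among treated Illumina libraries, ILB_9578 was the lowest for Cyp1a2 (2625 reads, the others 4622 to 5051) and ILB_9579 the highest for Cyp2c69 (113, the others 30 to 52). On Ion Torrent, ILB_9582 had 16 reads of Cyp2s1, against 1 to 5 in the other treated libraries.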

How the results depend on the processing

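The number of P450 genes called lower stayed within 1.5 times the reported one under every alternative run. These runs used DESeq2, limma-voom, the rank test, other scalings and filters, and each mouse left out. Subfamily sums were refitted only with DESeq2, without TMM and with each mouse left out. The numbers of sums called, 6 lower and 1 higher, stayed within the same limit there. Of genes called higher, the rank test left 1 in each of the Illumina tables, as did limma-voom and library totals without TMM for Illumina STAR + Bowtie2, while no filter gave 2 for Ion Torrent STAR + Bowtie2; leaving out 1 mouse gave 1 to 2 in the Illumina STAR + Bowtie2 table and in the 3 Ion Torrent tables. The gene gained on Ion Torrent with GSNAP was Cyp2b9 without ILB_9577 and Cyp1b1 without ILB_9578. With TMM library sizes as the denominator, the share of counts on P450 genes changed by -0.816 (GSNAP), -0.838 (STAR) and -0.827 (STAR + Bowtie2) percentage points on Ion Torrent in place of -0.969, -1.02 and -0.969. Without TMM the median log2 fold change of all genes was -0.11 and that of the P450 genes with a mean of 10 reads -0.78 (Illumina GSNAP). The Cyp3a44 value of 0.61 (Illumina STAR) was the only one that reversed among the named genes; its counts there averaged under 1 read. Cyp2a4 lost its call in the Illumina STAR table without UNT_9575 or UNT_9584. Calls that were lost on leaving out any of several mice were those of Cyp2c65 (8 of 10 mice) and Cyp1b1 (6) with Illumina STAR + Bowtie2, Cyp2d34 (6) and Cyp2j9 (5) with Ion Torrent GSNAP, and Cyp3a13 (7) and Cyp2j9 (5) with Ion Torrent STAR + Bowtie2. Without the replicate block, the interaction of platform and treatment was called for 0 P450 genes with each aligner, as with it. Depth limits the minor paralogs, several of which differ widely in reads by aligner, and the cause of the changes listed here was not tested.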
